A study of Drosophila melanogaster with 3 samples.

Results

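CG10274 binding upstream of transcription start sites was examined at 620 peaks, 20.7% of the 2988 peaks in the combined list that the authors drew from their 3 replicates. A member had its summit within 500 bp of annotated protein-coding transcription start sites (TSSs) of one strand only. Its summit also lay more than 100 bp and at most 500 bp upstream of the nearest such TSS, and upstream positions are written as negative in the direction of the gene. The remaining combined peaks were 330 core and downstream peaks at one-sided promoters (−100 to +500), 366 peaks with TSSs of both strands within 500 bp, and 1672 peaks with no protein-coding TSS within 500 bp.

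All libraries came from one group. They were 3 biological replicates of whole embryos of Drosophila melanogaster, 0 to 24 h old and of mixed sex, from 1 transgenic line that stably carries CG10274 with GFP at its C-terminus, immunoprecipitated with an antibody to GFP. Every value therefore averages over all embryonic tissues and ages and describes the tagged protein of a single line, and the labels do not say which promoter or cells drive it. The labels name no second genotype, and the possible control data set they list was not analysed here. Where nothing says that the embryos came from separate collections, the spread between replicates may be partly technical.

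A promoter is the DNA around a TSS where RNA polymerase II is loaded. In flies the core promoter, with elements such as the TATA box and the initiator, lies close to the TSS, and sequence-specific factors often bind a little farther upstream. Start sites of neighbouring genes can also face away from each other and share one divergent promoter, and peaks there cannot be assigned to one side. A chromatin immunoprecipitation peak has a summit, the base where the signal is highest, which is the closest estimate of where the tagged protein or its complex contacts DNA.

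The 10 highest-scoring members on arms 2L, 3L, 3R and X that had a peak in every replicate list are shown first, to set the DNA at the strongest signal beside its values. Each window holds the summit base and 50 bp on either side in the dm6 build, read from the RefSeq Release 6 genome in the direction of the gene, 5′ to 3′. Capitals mark the best match in a window to a 16-position weight matrix that is described with the motifs. Any further site in the same window is left in lower case. In 5 of these windows the matrix had a match. CG1607 (chr3R:31384236-31384336, plus strand), CG9743 (chr3R:30203329-30203429, minus strand), Pgk (chr2L:2750351-2750451, minus strand), org-1 (chrX:8455235-8455335, minus strand) and CG11655 (chrX:15453271-15453371, plus strand) were those genes.
CG1607: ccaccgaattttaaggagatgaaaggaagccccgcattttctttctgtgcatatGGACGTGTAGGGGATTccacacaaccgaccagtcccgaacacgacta
CG9743: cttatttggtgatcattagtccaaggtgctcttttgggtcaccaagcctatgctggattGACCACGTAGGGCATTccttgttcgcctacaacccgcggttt
Pgk: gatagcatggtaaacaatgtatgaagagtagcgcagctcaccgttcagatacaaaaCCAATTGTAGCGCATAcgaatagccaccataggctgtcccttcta
org-1: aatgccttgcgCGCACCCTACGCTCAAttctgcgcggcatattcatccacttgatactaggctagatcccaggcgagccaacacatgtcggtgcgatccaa
CG11655: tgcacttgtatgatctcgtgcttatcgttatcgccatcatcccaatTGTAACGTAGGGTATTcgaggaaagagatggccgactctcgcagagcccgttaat

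The other 5 windows held no match. They belonged to Pgm1 (chr3L:16128660-16128760, minus strand), fray (chr3R:18584211-18584311, plus strand), Mcad (chr3L:7718979-7719079, plus strand), CG34288 (chr3R:22447460-22447560, minus strand) and pes (chr2L:7994251-7994351, minus strand), and include the strongest member of all.
Pgm1: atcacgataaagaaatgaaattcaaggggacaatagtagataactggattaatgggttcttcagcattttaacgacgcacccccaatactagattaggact
fray: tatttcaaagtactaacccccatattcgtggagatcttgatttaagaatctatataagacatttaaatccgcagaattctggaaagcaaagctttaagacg
Mcad: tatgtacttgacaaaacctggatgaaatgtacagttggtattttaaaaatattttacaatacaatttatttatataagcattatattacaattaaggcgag
CG34288: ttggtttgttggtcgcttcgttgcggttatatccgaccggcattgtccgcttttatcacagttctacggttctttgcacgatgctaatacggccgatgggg
pes: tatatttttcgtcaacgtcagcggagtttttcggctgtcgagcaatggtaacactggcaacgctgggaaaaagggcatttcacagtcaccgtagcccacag

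Members carried some of the strongest signal in the data. Pgm1, the phosphoglucose mutase that joins glycogen to glycolysis, had the strongest upstream peak, at rank 3 of the whole combined list, with its summit at −179. A relative score is used throughout, in which 1 is the median score of that replicate at the 2292 combined peaks that every replicate list shares. At Pgm1 it was 55.2, 31.3 and 35.5 in replicates 1, 2 and 3 (mean 40.7 ± 12.8, SD, n = 3). Fmo-2, a flavin-containing monooxygenase, followed at rank 8 with 45.4, 23.3 and 27.6 and a summit at −111. CG1607 ranked 13 with 30.9, 20.4 and 24.1 and a summit at −113. For all 3 peaks replicate 1 was the highest and replicate 2 the lowest.

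CG9743, a fatty acyl desaturase gene, ranked 16 with relative scores of 26.5, 14.4 and 17.5. At ced-6, an adaptor gene for the clearance of dying cells, 2 summits of one interval ranked 20 and 30 at −220 and −438 and shared the same replicate peaks, with 29.4, 10.5 and 15.9. Pgk, the phosphoglycerate kinase of glycolysis, ranked 21 with 22.7, 15.7 and 17.97. The order of neighbours in this part of the list was within the spread between replicates, since the SDs ran from 3.601 for Pgk to 9.76 for ced-6.

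Further down the 20 highest-scoring members with a peak in every list, genes of signalling, metabolism and gene control alternated. The kinase gene fray had relative scores of 22.9, 12.6 and 16.8, and Jheh1, a juvenile hormone epoxide hydrolase, had 20.3, 12.8 and 14.1. The cytochrome P450 gene Cyp317a1 had 24.6, 7.88 and 11.7, and Mcad, a medium-chain acyl-CoA dehydrogenase of fatty acid oxidation, had 23.7, 9.54 and 11.4. These 4 peaks varied by 1.58 to 3.12 times between replicates. CG34288 stood at 22.003, 9.03 and 10.7. The T-box factor gene org-1 differed least between replicates, at 15.1, 12.4 and 13.9. Next came pes, a scavenger receptor of the CD36 family, at 14.9, 8.53 and 11.9, and CG11655 at 14.2, 7.40 and 10.6.

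The last of the 20 were still several times above the median shared peak. The ETS repressor gene aop stood at 13.7, 6.501 and 9.13, and Spn, which encodes the phosphatase-targeting protein spinophilin, at 13.0, 5.98 and 8.20. Pde8, a cyclic nucleotide phosphodiesterase, reached 10.5, 6.80 and 7.94. The hypoxia-inducible factor gene sima had 11.7, 4.26 and 4.97, and Hs3st-A, a heparan sulfate sulfotransferase, had 10.5, 4.75 and 5.23. Every one of these 20 peaks was highest in replicate 1 and lowest in replicate 2.

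**Figure D1:**
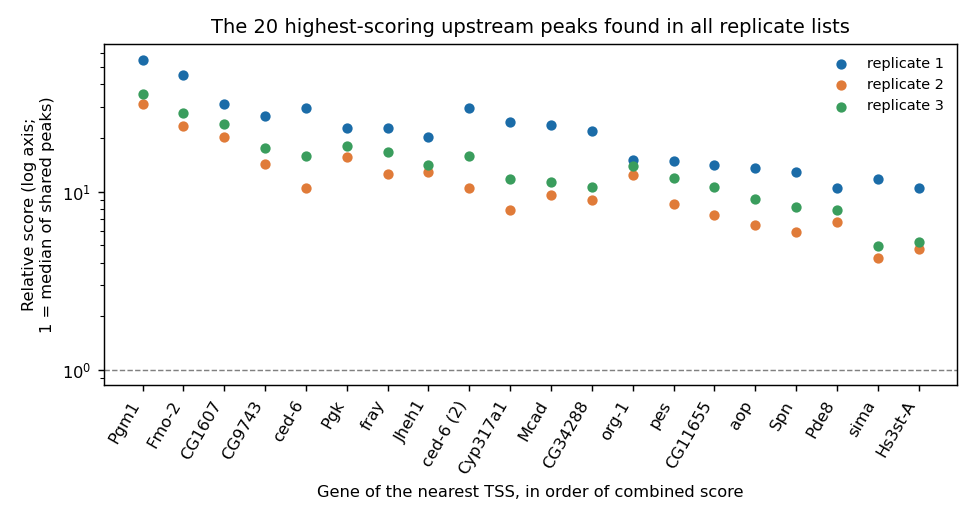
Relative score (log axis, 1 is the replicate's median over peaks shared by all lists) in each of 3 replicates for the 20 highest-scoring upstream peaks found in all replicate lists, in order of combined score. Points of replicate 1 lie highest at each peak, and values fall from between 31.3 and 55.2 at Pgm1 to between 4.75 and 10.5 at Hs3st-A, where the dashed line marks 1.

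The gene of CG10274 itself had a member, at −235 and rank 1338. Its relative score was 0.783 in replicate 1 and 1.31 in replicate 2, and the list of replicate 3 held no peak there. Members as a whole ranked from 3 to 2975 with a median of 1163. They fell on 546 genes, and 63 of these genes had 2 or more members. Rtnl1, a reticulon gene of the endoplasmic reticulum, had the most, with 4 members at 4 of its start sites, at −248, −233, −227 and −313. In all, 10 genes had 3 or more members, among them spi, an EGF receptor ligand, Hnf4, a nuclear receptor of lipid metabolism, Moe, which links actin to the membrane, and tmod, which caps actin filaments. The 4 peaks at Rtnl1 were uneven in strength, with combined ranks of 190, 671, 1860 and 2162.

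Summits favoured the upstream side of one-sided promoters. The combined list held 620 such summits upstream against 120 at the same distances downstream, a ratio of 5.17. Because the combined list merges the replicates, the same rule was applied to each replicate's own 2988 highest-scoring peaks. Upstream and downstream numbers were 598 and 175 in replicate 1, 576 and 125 in replicate 2, and 497 and 105 in replicate 3. The ratio was above 1 in 3 of 3 replicates, at 3.42, 4.61 and 4.73 (mean 4.25 ± 0.726, SD, n = 3). On the log2 scale the mean was 2.07 ± 0.26, with p = 0.25 in a two-sided exact sign-flip permutation test, the smallest p that 3 replicates can give.

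Within the upstream window the number of summits rose towards the gene. From −500 in steps of 100 bp, the combined list held 93, 129, 181 and 217 summits, then 141 just upstream of the TSS and 68 just downstream of it. Each replicate's own peaks gave upstream numbers that were lowest in the outermost step, at 70, 87 and 82 for replicates 1, 2 and 3. The innermost upstream step held 210, 189 and 155, and in replicate 3 it was level with the 156 of the step before. Members had a median position of −248 with quartiles of −345 and −173.

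**Figure D2:**
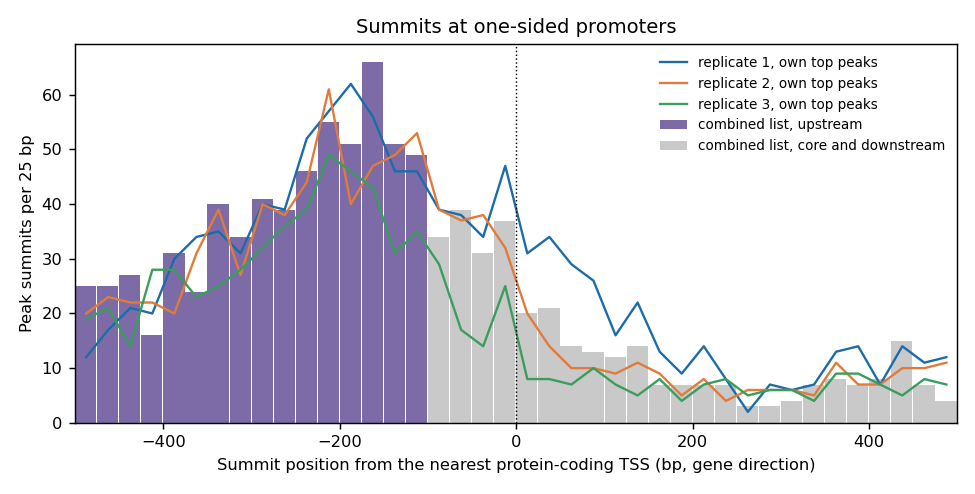
Number of peak summits per 25 bp by position from the nearest protein-coding TSS at one-sided promoters. Bars are the combined list, with the 620 members in purple and the other 330 summits in grey, and lines are each replicate's own 2988 highest-scoring peaks; all of them are highest upstream of the TSS, where upstream summits outnumber downstream ones by 3.42 to 4.73 times in the replicates.

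The upstream excess was a feature of high-ranking peaks. In the authors' list called on pooled replicates, the ratio of upstream to downstream summits was 5.49 among ranks 1 to 1000, 5.57 among ranks 1001 to 2000 and 4.33 among ranks 2001 to 2988, which end the combined list. It was 2.73 among ranks 2989 to 5000, 1.06 among ranks 5001 to 10000 and 0.853 among ranks 10001 to 20000. Lists of this kind include background below the combined threshold. Within the combined list, members made up 31.0% of ranks 1 to 597 and 15.7% of ranks 2391 to 2988.

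Bounds of the rule cut through a continuous run of summits. Just inside the inner bound were CG4250 and CG34250 at −102 and neur at −103, and just outside it were WASp and CG15097 at −100 and Myd88 at −99. The outer bound had kay and fiz at −499 and CG43901 at −498 inside, with CG43072 and prage at −501 and HmgZ at −502 outside. Ranks of these 12 peaks ran from 172, for CG15097, to 2975, for CG34250.

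Replicate summits at members are given as a description, because the combined summits that chose the members come from the same replicates. Of the 510 members with a peak in all 3 lists, 426 (83.5%, 95% Wilson interval 80.1 to 86.5) had all 3 replicate summits in the upstream window. The median SD of the position over the 3 replicates was 27.2 bp. Of the replicate peaks that overlapped a member, 91.3%, 92.6% and 92.1% had their summit in the upstream window in replicates 1, 2 and 3 (mean 92.0% ± 0.649, SD, n = 3). Chromatin was sheared to 200 to 800 bp. Pgm1, for example, had its summit at −186, −167 and −180.

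Annotation placed members in several kinds of sequence. Summits lay between genes in 299 members (48.2%), within the gene of the nearest TSS in 252 (40.6%) and within another gene only in 69 (11.1%). Introns of the own gene alone held 33.1% of members, as many fly genes have further start sites downstream of the first, and 4 summits lay in a coding exon. The nearest TSS was the first of its gene in 368 members (59.4%). The peak interval itself reached the TSS in 162 members (26.1%). A protein-coding TSS of the other strand stood 501 to 1000 bp upstream of the summit in 47 members, just beyond the window that would have made the promoter divergent.

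Members had a top peak in all replicates more often than the combined list did, but at like rank they were above peaks away from coding TSSs in 2 of 5 rank groups only. A top peak of every replicate, one among its 2988 highest-scoring, overlapped 378 of 620 members (61.0%, Wilson interval 57.1 to 64.7), beside 50.3% of all combined peaks. Core and downstream peaks reached 42.4%, divergent promoter peaks 45.1% and peaks away from coding TSSs 49.1%. By replicate, the share of members under a top peak exceeded that of core and downstream peaks by 3.40, 4.65 and 22.5 percentage points (exact sign-flip permutation p = 0.25). Members also stood higher in the list, with 88 of 620 (14.2%) at rank 300 or better beside 10% of all combined peaks. Among ranks 1 to 597, 91.9% of members and 94.3% of peaks away from coding TSSs had a top peak in every replicate, and among ranks 598 to 1195 the shares were 80.9% and 84.7%. They were 63.2% and 56.3% among ranks 1196 to 1792, 23.1% and 23.2% among ranks 1793 to 2390, and 11.7% and 4.86% among the last. These intervals and those below cover the counting of peaks only, and the read depth behind the scores is unknown.

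Replicate 3 separated the promoter classes. Its list held a peak at 83.4% of members, 61.2% of core and downstream peaks, 64.8% of divergent promoter peaks and 83.4% of peaks away from coding TSSs. In replicates 1 and 2 the same shares were at least 97.5% for every class. The difference between members and core peaks was therefore −0.987 percentage points in replicate 1, 0.670 in replicate 2 and 22.2 in replicate 3 (exact sign-flip permutation p = 0.75). It was present at like rank: among combined ranks 2391 to 2988, replicate 3 listed 70.2% of the 94 members and 40.0% of the 70 core and downstream peaks. Among ranks 1 to 597 the shares were 92.4% of 185 and 82.8% of 64. Median G+C at the summit was 32.7% for members, 43.6% for core and downstream peaks, 33.7% for divergent promoter peaks and 34.7% away from coding TSSs, and its part in the result was not tested.

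**Figure D3:**
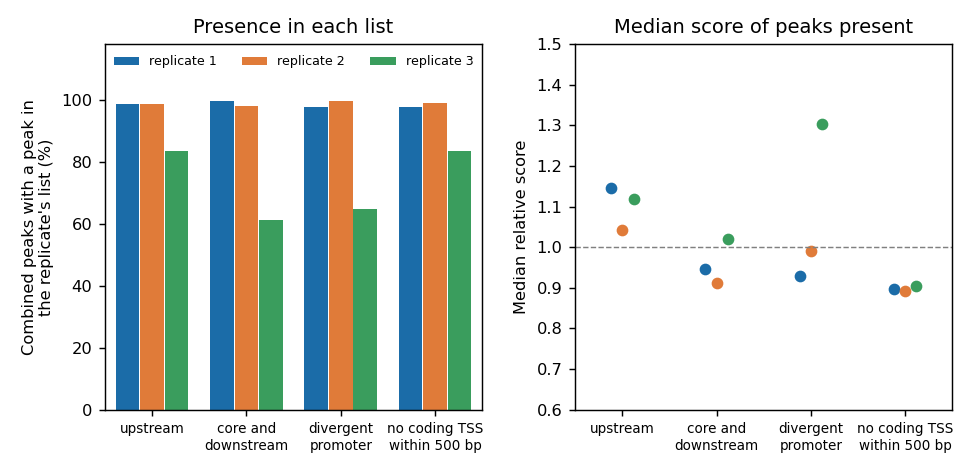
Left, share of combined peaks of 4 classes that overlap a peak in each replicate's list; right, median relative score of the peaks present, with 1 (dashed) the median over peaks shared by all lists. Replicate 3 lists 83.4% of upstream peaks and 61.2% of core and downstream peaks, and upstream peaks have a higher median than core and downstream peaks in each replicate.

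Scores of members were a little higher than those of core and downstream peaks. The median relative score was 1.15, 1.04 and 1.12 for members and 0.946, 0.911 and 1.02 for core and downstream peaks in replicates 1, 2 and 3. The fold was above 1 in 3 of 3 replicates, at 1.21, 1.14 and 1.097 (mean 1.15 ± 0.0580, SD, n = 3; log2 0.20 ± 0.07). The exact sign-flip permutation test gave p = 0.25, the smallest possible. Against divergent promoter peaks the folds were 1.23, 1.05 and 0.859, which lie on both sides of 1 (p = 0.75, the same exact test). Each median covers only peaks present in that replicate's list. In replicate 3 these were 83.4% of members, 61.2% of core and downstream peaks and 64.8% of divergent promoter peaks, so its folds compare unlike fractions. Among members, those in the step from −300 had the highest median relative score of the 100 bp steps in every replicate, at 1.28, 1.19 and 1.21.

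Genes of glycolysis and sugar metabolism had a member more often than any other of the 17 gene lists. The lists were chosen with earlier results of these data known, so their order is a description only. A member lay at 9 of the 29 genes on that list (31.0%, Wilson interval 17.3 to 49.2), beside 3.91% of all 13968 protein-coding genes. They were Pgm1, Pgk, Gapdh2, Glyp, Hex-A, Eno, Ldh, Pfrx and fbp, which take in enzymes that break down glycogen (Glyp), phosphorylate glucose (Hex-A), carry out the later steps of glycolysis (Gapdh2, Pgk and Eno) and convert pyruvate to lactate (Ldh). Signal at them ranged widely. After Pgm1 and Pgk came Gapdh2, with relative scores of 4.94 and 2.58 in replicates 1 and 2 and no peak in the list of replicate 3. Glyp had 3.10, 2.31 and 2.24, Hex-A 2.00, 1.64 and 1.92, and Eno 2.27, 1.77 and 1.32. Ldh, with 2 member summits in overlap with the same replicate peaks, had 1.298, 1.66 and 1.28. The weakest was fbp, the gluconeogenic fructose bisphosphatase, at 0.587, 0.359 and 0.786. Top peaks of all 3 replicates overlapped members at 6 of these 9 genes, all but Gapdh2, Pfrx and fbp. Such top peaks overlapped 61.0% of all members and 50.3% of all combined peaks, so this count is not particular to these genes.

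Members also lay at lipid, growth and hormone genes. Of the 31 lipid metabolism genes 4 had a member (12.9%, Wilson interval 5.13 to 28.9), beside 3.91% of all protein-coding genes. CG9743 and Mcad led them, and Lpin, a phosphatidate phosphatase, stood at 3.11, 2.15 and 2.06. FASN1, a fatty acid synthase, stood near the median shared peak at 1.14, 1.14 and 0.901. Among kinase and growth signalling genes, fray and aop ranked ahead of sgg, foxo and kay, and sgg, a kinase gene of the Wnt pathway, had 1.80, 2.72 and 2.30. The steroid and juvenile hormone list had 3 of 36 (8.33%, Wilson interval 2.87 to 21.8), Jheh1, shd and ERR. Its interval included the 3.91% of all genes. shd, which encodes the hydroxylase that makes the active moulting hormone, had 0.837, 0.798 and 0.685. ERR, the estrogen-related receptor known in flies to promote glycolytic genes, had 0.712 and 0.583 in replicates 1 and 2 and no peak in the list of replicate 3.

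Genes of development had members of moderate signal. In the proneural and Notch list 4 of 24 genes had one (16.7%, Wilson interval 6.68 to 35.9), beside 3.91% of all protein-coding genes. They were E(spl)m3-HLH, E(spl)m7-HLH, neur and mam. E(spl)m3-HLH, a bHLH repressor switched on by Notch, had 2.05, 1.80 and 2.05, and E(spl)m7-HLH, another of these repressors, had 1.21, 0.976 and 0.807. Cell cycle and replication genes had 3 of 39 (7.69%). Dp, the partner of E2F factors, had 1.78, 2.35 and 1.60, and the cyclin-dependent kinase inhibitor gene dap had 2.51, 0.982 and 0.955 at its stronger member. The spread at dap was larger than its distance from 1. Muscle genes had 2 of 27, Msp300 at 1.84, 2.17 and 2.17 and sls, which encodes the titin-like protein of the sarcomere, at 1.45, 1.28 and 1.07. Neuronal genes had 2 of 29, the RNA-binding protein gene elav at 2.48, 2.73 and 2.96 and the synaptic calcium sensor gene Syt1 at 3.10, 0.885 and 0.907. Among 28 segmentation and Hox genes only bcd had a member, with 0.905 and 0.575 in replicates 2 and 3 and no peak in the list of replicate 1.

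Other groups were near or below the share of all genes. Detoxification enzymes had 5 of 157 (3.18%), although Fmo-2 and Cyp317a1 were among the strongest members. Chromatin and architectural protein genes had 2 of 51 (3.92%). Of these, ph-p, a Polycomb group gene, stood at 3.95, 8.45 and 7.60, and nej, which encodes the CBP acetyltransferase, at 0.569 and 0.934 in replicates 1 and 2 alone. Translation factors and tRNA synthetases had 2 of 84, eIF6 at 4.55, 5.55 and 5.60 and eIF5B at 0.946, 1.07 and 0.983. In contrast to the strongest members, ph-p and eIF6 were lowest in replicate 1. Vesicle traffic genes had 2 of 91, Syx4 with 2 members, the stronger at 1.00, 1.20 and 1.13, and Rab5 at 1.17, 0.835 and 0.963. Mitochondrial ribosomal proteins had 1 of 73, mRpL41 at 4.08, 3.29 and 4.67.

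No member lay at any of the 86 cytosolic ribosomal protein genes, 87 respiratory chain genes or 31 genes of the exon junction and mRNA decay list. The upper ends of the Wilson intervals were 4.28%, 4.23% and 11.0%. These intervals all include the 3.91% of all protein-coding genes. The ribosomal protein genes were not without peaks. A combined peak of some promoter class lay within 500 bp of a TSS at 61 of the 86, beside 1184 of all 13968 protein-coding genes. Members lay at 546 of those 1184 genes and at 0 of the 61. The peaks at these 61 genes were core, downstream or divergent by the rule.

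Summits of members were poor in G+C. The median G+C within 50 bp of a member's summit was 32.7% (quartiles 27.7 and 38.6), against 43.6% and 42.6% in windows 500 bp to the left and right. The summit window was lower than the mean of its flanks in 487 of 620 members (78.5%). All combined summits had a median of 34.7% and core and downstream summits 43.6%, and windows centred 250 bp upstream of the first TSS of all 13968 genes had 36.6%. Upstream summits from each replicate's own top peaks had a median of 33.7% in every replicate, against mean flank medians of 42.6%, 42.3% and 43.1%. The difference was −8.99 ± 0.378 percentage points (SD, n = 3; exact sign-flip permutation p = 0.25). Lower G+C at the summit than in the flanks was thus found in 3 of 3 replicates.

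**Figure D4:**
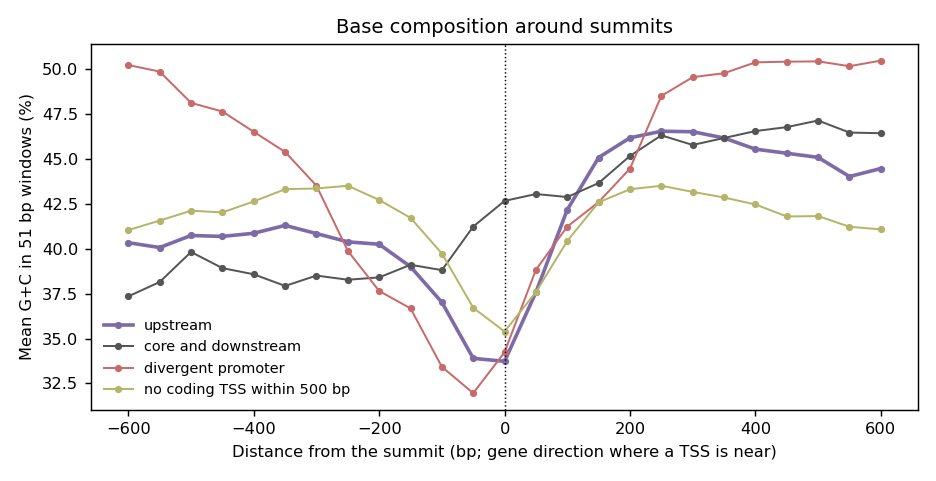
Mean G+C in windows of 51 bp at steps of 50 bp from the summit, in the direction of the gene where a TSS is near, for 4 classes of combined peaks. The upstream class dips to 33.7% at the summit and reaches 46.5% at 250 to 300 bp downstream.

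Known promoter elements were counted on both strands within 50 bp of the summit. TATAAA, the core of the TATA box, was present in 23.1% of members, 11.9% of their flank windows, 18.3% of the windows upstream of all genes and 11.2% of core and downstream summits. Divergent summits had 23.2%, summits away from coding TSSs 19.7% and all combined summits 19.9%. The element consists of A and T alone, and its share moves with the low G+C above, whose part was not tested. Elements of housekeeping promoters were scarce at members and also at summits away from coding TSSs. TATCGATA, the palindromic DRE, was present in 0.161% of members beside 1.503% of all genes' windows and 3.94% of core and downstream summits, and CGATA, the shorter BEAF-32 element that overlaps it, in 10.5%, 15.0% and 23.3%. GGTCACAC, bound by M1BP, had 0 members, 1.103% of all genes' windows and 2.73% of core and downstream summits. Summits away from coding TSSs had 0.179% for TATCGATA, 11.1% for CGATA and 0.120% for GGTCACAC, and all combined summits had 1.24%, 13.3% and 0.636%. Further elements were counted in members, all genes' windows and all combined summits, in that order. The E-box CACGTG was present in 1.13%, 1.13% and 1.07%, and the Pho element GCCATNT in 4.03%, 5.498% and 4.99%. The initiator core TCAGT was present in 19.03%, 15.5% and 17.7%, with 17.4% in member flanks. The Zelda site CAGGTAG was present in 0.645%, 0.630% and 0.636%, and Ohler motif 7 (CATCNCTA) in 0.645%, 1.43% and 0.904%. AAAAAAAA was present in 6.29%, 5.78% and 6.33%. Repeats were rarer at summits than around them, as GAGAGAG was present in 1.29% of members and 3.15% of their flanks, and CACACACA in 0.645% and 3.71%. The windows upstream of all genes had 1.37% for GAGAGAG and 1.32% for CACACACA. All combined summits had 0.937% and 1.305%, and their flanks 3.397% and 3.698%, so the drop was not particular to members.

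Matrices were learned on combined peaks that are not members, so that members played no part in the learning. The matrix from all such peaks was AT-rich and grew from the 8-mer TAAAAAAA. At a cutoff passed by 5% of flank windows it matched 64 of 620 members (10.3%), 4.60% of member flanks and 8.34% of the windows upstream of all genes. All combined peaks also had 10.3%, so the members' share equalled the background. Of the 64 matches 24 (37.5%, Wilson interval 26.7 to 49.7) lay on the strand of the gene.

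A second matrix, learned on the 100 strongest combined peaks that are not members and chosen after the data were seen, had CCCTACACT at the centre of its consensus. It matched 59 members (9.52%), 5.81% of member flanks and 4.28% of the windows upstream of all genes. All combined peaks had 10.8% and core and downstream peaks 15.2%, so members as a whole did not exceed the background. The matrix depends on how many peaks it was learned from. The 50 strongest gave a like matrix, with matches in 9.19% of members and in 17.7% of the 62 strongest. The 200 strongest gave an AT-rich one, with matches in 14.0% of members and in 14.5% of the 62 strongest. Aligned sites show how matches to the matrix from 100 peaks read at members. Aligned here are the sites of the 12 strongest members on arms 2L, 3L, 3R, 4 and X with a match, 5′ to 3′ on the strand of the matrix, with positions 5 to 10 in capitals.
CG1607: aatcCCCTACacgtcc
CG9743: aatgCCCTACgtggtc
Pgk: tatgCGCTACaattgg
org-1: cgcaCCCTACgctcaa
CG11655: aataCCCTACgttaca
aop: aatgCGCTACacagga
Spn: gatgCCCTACtggcca
orion: aataCCCTACtcagtt
CG31075: agtgCCCTACaatgtg
Pomp: tgtaCCCTGCaatggt
PGRP-LB: tttgCCCTACggtcaa
Act5C: aatgCCCTACtagaag
Positions 5 and 7 to 10 of the matrix held C, C, T, A and C in at least 89.7% of its sites. Of the 12 sites 9 read CCCTAC, 2 read CGCTAC and Pomp, a proteasome assembly factor gene, read CCCTGC, and with 12 sites these are counts only. The sites were picked as matches to this matrix, so their likeness to its core follows from the choice.

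Among members, matches concentrated at the strong end. The 62 strongest members had 15 matches (24.2%, Wilson interval 15.2 to 36.2), against 7.26% of their flank windows. In successive groups of 124 members in rank order the share was 16.9%, 11.3%, 8.06%, 8.06% and 3.23%, while flanks stayed between 4.44% and 6.85%. Of the 20 strongest members with a peak in every list, 8 had a match. At a stricter cutoff passed by 1% of flank windows, 26 members matched (4.19%), against 1.29% of their flanks and 0.974% of the windows upstream of all genes. Core and downstream peaks matched more often at this cutoff, in 8.79%. Of the 26 members, the strongest group of 124 held 12 and the weakest held 1.

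The matrix was also scanned in each replicate's own list. Upstream summits from each replicate's own top peaks had a match in 10.7%, 10.1% and 10.9%, against 6.02%, 4.60% and 5.03% of their flanks. The difference was 5.33 ± 0.589 percentage points (SD, n = 3; exact sign-flip permutation p = 0.25) and positive in 3 of 3 replicates. In the strongest 10% of each replicate's upstream peaks, which came to 59, 57 and 49 peaks, matches were in 30.5%, 29.8% and 34.7%, against 6.78%, 6.14% and 6.12% of flanks. Peaks were classed here by each replicate's own summits, and peaks used to learn the matrix were not taken out. Some of them can therefore be counted in these shares, unlike in the shares of members. These lists overlap in the peaks they hold, since the replicates sample one line.

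**Figure D5:**
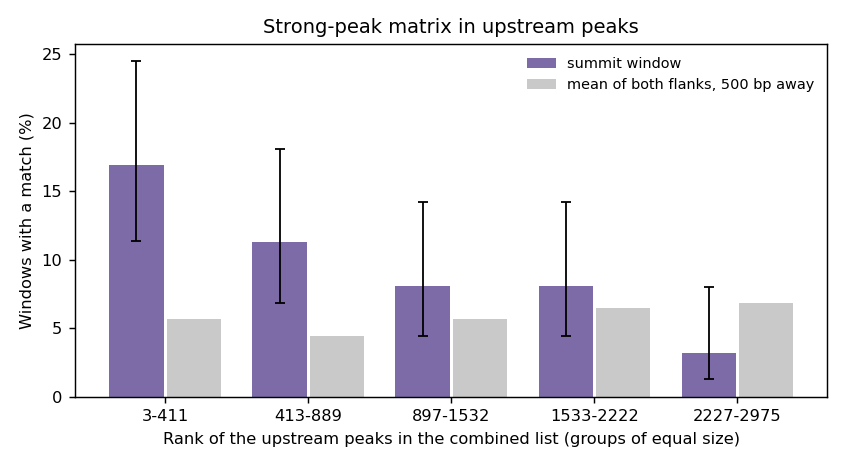
Share of members with a match to the matrix learned on the 100 strongest other peaks, in 5 groups of 124 members by rank in the combined list, at the summit (purple, with 95% Wilson intervals) and as the mean of both flanks (grey). The share at the summit falls from 16.9% to 3.23%, and flanks lie between 4.44% and 6.85%.

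Matched members scored higher than the rest in each replicate. The median relative score was 1.87, 1.16 and 1.40 for the 59 members with a match and 1.09, 1.04 and 1.102 for the 561 without. The fold was 1.72, 1.12 and 1.27 (mean 1.37 ± 0.313, SD, n = 3; exact sign-flip permutation p = 0.25). Top peaks of all 3 replicates overlapped 42 of the 59 (71.2%) and 336 of the 561 (59.9%).

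The orientation of matches was not settled. Of the 59 matches 23 (38.98%, Wilson interval 27.6 to 51.7) lay on the strand of the gene, an interval that includes an even split. By position, matches were in 11.8%, 11.6%, 4.97% and 11.1% of members in the 100 bp steps from the outermost to the innermost, so the step with the highest median score had the lowest share. The exact 8-mer CCCTACAC was present in 5 members (0.806%), none of their flank windows and 0.0788% of the windows upstream of all genes. All combined peaks had it in 1.104%, so members did not exceed the share over all peaks. Core and downstream peaks had 1.82%, peaks away from coding TSSs 1.196% and divergent promoter peaks 0.546%.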

How the data were processed

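Peak lists of ChIP-seq of tagged CG10274 in 3 embryo replicates were used in the dm6 build, per the labels. The authors' deposited score per peak has no fixed unit and was not scaled between lists; the authors also deposited the summit offset as another column. The replicate and pooled lists hold 30000 entries each, with background, and the 2988 peaks that passed IDR are the highest-scoring pooled entries. How reads were aligned and peaks called was not given in the sources used here, and read depth is unknown.

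Summits were set against 19276 protein-coding TSSs of Ensembl release 115 (BDGP 6.54), with sequence from RefSeq Release 6. Replicate peaks overlapped by at least 1 bp, the highest-scoring one being taken, and scores were divided by medians of 112.5, 74.9 and 56.3. Windows reaching 50 bp either side of the summit were searched on both strands for 12 motifs and for 16-position matrices, with flanks at 500 bp. Differences were tested over 3 replicates by exact two-sided sign-flip permutation. Scripts ran in Python 3.11.15 (pandas 2.3.3, scipy 1.17.1, numpy 2.4.6, figures with matplotlib 3.10.9) and were tested on simulated data. Alternatives were other TSS sets, bounds, windows, cutoffs, peak thresholds and each replicate left out; the dm3 lists were not used.

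Members, the 17 gene lists (3 symbols unmatched), motifs and tests were chosen with earlier results of these data known. Named are the 20 highest-scoring members found in all lists, the 2 highest of each gene list, CG10274 and the peaks nearest each bound. The other genes given with values were chosen after these were seen. The count over the kinase and growth signalling list is not reported here.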

Additional observations from a re-analysis of the deposited data

How the results depend on the processing

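Of 98 alternative values 0 reversed and 23 moved, by more than 1.5 times for the number of peaks, 1 SD over replicates for the ratio and score difference, or the 95% Wilson interval for shares. Only the ratio and the score difference have a direction that could reverse, so for counts and shares the 0 was set beforehand. The other 75 moved less. Leaving out 1 replicate gave a ratio of 4.01 to 4.67, a log2 score difference of 0.16 to 0.24 over core and downstream peaks and support of 64.8% to 75.2% of members. The count of upstream peaks, 402 to 466, then covered only members with a top peak in each remaining replicate. The main count has no such requirement, so the count is lower by construction. Among these supported members an AT-rich match was in 10.4% to 10.7% and a strong-peak match in 10.4% to 11.7%. Of their strong-peak matches, 38% to 40.9% lay on the gene's strand. The strongest 10% of the supported members had strong-peak matches in 30.4% to 35.0%. At ranks 1 to 1494 there were 364 members, a ratio of 5.68, support of 85.4% and strong-peak matches in 12.1%, and 38.9% in the strongest 10% of members. With gene 5′ ends only there were 393 members and a ratio of 3.23. Support was 78.2% with 10000 peaks per replicate and 38.7% with reciprocal 50% overlap. The log2 difference was 0.052 against divergent peaks. With cutoffs passed by 1% and 10% of flanks, the AT-rich matrix matched 1.61% and 20.8%, with 20% on the gene's strand at 1%, and the strong-peak matrix 4.19% and 16.3%, with 14.5% in the strongest 10% of members at 1%. Windows of 100 bp on either side gave it 12.3%. Learned on the 50 strongest peaks the consensus held GCNCTACACT, and 9.19% of members and 17.7% of the strongest 10% matched. Learned on the 200 strongest it was AT-rich, around AATTAATTT, with 14.0% of members and 14.5% of the strongest 10%, so the CTAC-containing matrix depends on the number of peaks used. Causes of these shifts were not tested beyond what each setting changes by construction. No paired analysis was possible because the series has 1 group.

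Read depth is unknown, so no statement on weak or absent peaks can be tied to sequencing. With 3 replicates no test can reach 0.05. An untagged or input comparison was not analysed here.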

Other observations

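Members were spread over the chromosome arms much as the combined peaks were. The X chromosome held 126 members (20.3%), beside 19.3% of all combined peaks and 15.7% of protein-coding genes, and arm 3R held 135 (21.8%), beside 23.4% and 24.5%. Chromosome 4 held 3 members and the Y chromosome 0, where the combined list also had 0 peaks.

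A small set of members had no support among the 2988 highest-scoring peaks of any replicate. These were 5 peaks, at CG13894, MICU3, CG6688, CG6398 and CG34250, with combined ranks of 2363, 2432, 2639, 2919 and 2975. Genes with both a member and a core or downstream peak numbered 30, and TSSs of 2 or more genes on one strand lay within 500 bp of 14 members.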
